A study of Mus musculus with 9 samples.

Results

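The genes described here are 10 well-known astrocyte genes, Slc1a2, Slc1a3, Glul, Gja1, Aqp4, Gfap, S100b, Aldh1l1, Aldoc and Apoe, followed through the ribosome-associated RNA of parvalbumin inhibitory neurons (PV INs) of CA3/CA2. The rule lists the genes by name and uses no measured value, but the list was drawn up with earlier results of these data known. All 10 were found among the 37620 gene identifiers counted and all 10 were among the 15069 genes tested. The study compared 5 samples from mice given non-target shRNA (shNT) with 4 samples from mice given an shRNA against Ablim3 (shRNA). Both groups were PV-Cre; Rpl22HA/HA mice, in which Cre driven from the parvalbumin gene restricts the HA-tagged ribosomal protein L22 to parvalbumin cells. Lentivirus was injected into DG at 2 months of age, CA2/CA3 was collected 2 weeks later, and tissue of 6 mice of both sexes was pooled for each sample. The only difference stated between the groups is the shRNA.

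Astrocytes are glial cells and not the cells that the parvalbumin gene marks. Astrocytes clear glutamate and potassium from around synapses, return glutamine to neurons, wrap blood vessels with endfeet and are joined by gap junctions. Several of the 10 genes are not strictly astrocytic: S100b is also made by oligodendrocyte lineage cells, Apoe by microglia and vascular cells, Glul by oligodendrocytes, and Slc1a2 by some neurons. Each sample is the precipitated RNA of pooled tissue, so the number of astrocytes, the RNA per astrocyte and the share of astrocyte RNA in the precipitate cannot be told apart.

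Between 18281719 and 34578837 reads were counted on genes per sample. shRNA replicate 4 also lay beyond the other samples in measures that use no astrocyte gene. Of its uniquely aligned reads 27.2% fell outside annotated exons, against 9.76% to 19.8% in the other 8 samples. Its summed level of 12 PV IN markers was 3169 CPM (counts scaled to a common library size with TMM), against 5287 to 8690 CPM in the shNT samples and 5358 to 7534 CPM in shRNA replicates 1 to 3. Neither value passed Dixon's test for outliers (95% level) within the shRNA group. In the share outside exons shNT replicate 2 (18.6%) and shRNA replicate 1 (19.8%) were high as well. The rule asks for the 10 genes with and without shRNA replicate 4. Ablim3 itself, targeted in DG and not in the cells whose RNA was sequenced, had 12.1 to 22.6 CPM with shNT and 13.7 to 21.7 CPM with shRNA, which does not check the labels. By name the samples split into 6 and 3, and shRNA replicate 4 is the only shRNA sample among the 3, which also holds shNT replicates 4 and 5. What the names mark is not stated.

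Astrocyte genes were present in every sample, and 9 of the 10 had their highest level in shRNA replicate 4. How many of all genes tested had their highest level in that sample was not counted, here or for the lists below. The 10 genes summed to between 1526 and 1978 CPM in the shNT samples, to between 1823 and 2185 CPM in shRNA replicates 1 to 3, and to 7057 CPM in shRNA replicate 4. Over all 9 samples the median log2 fold change of the 10 genes (shRNA over shNT) was 1.26, beside 0.11 over all genes tested, and without shRNA replicate 4 it was 0.29 beside 0.03. None of the 10 was called in either fit (FDR under 0.05 and at least 1.5-fold, quasi-likelihood test of edgeR, p-values adjusted by Benjamini-Hochberg over all genes). Over all genes 1.74% were called higher and 0.0133% lower with 9 samples, and 0.978% were called higher with 8. At an unadjusted p under 0.05, 7 of the 10 were higher with 9 samples, where 20.7% of all genes were, and 3 of the 10 (Aldh1l1, Slc1a2 and Slc1a3) with 8 samples, where 14.6% were. All 10 log2 fold changes were positive with 9 samples, as were 57.9% of all, and 8 of the 10 were positive with 8 samples, as were 53.0% of all. Other tests called more of them in the 9 samples: 6 with edgeR's likelihood ratio test (11.2% of all genes higher), 3 with limma voom (15.3%) and 2 with DESeq2 (10.2%). With 8 samples the same tests called 1 (5.28%), 3 (15.6%) and 1 (4.95%). DESeq2 gave no p-value for 4 of the 10 (Apoe, Aqp4, Gja1 and Slc1a3), since it sets aside genes in which 1 sample has a very large weight.

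**Figure D1:**
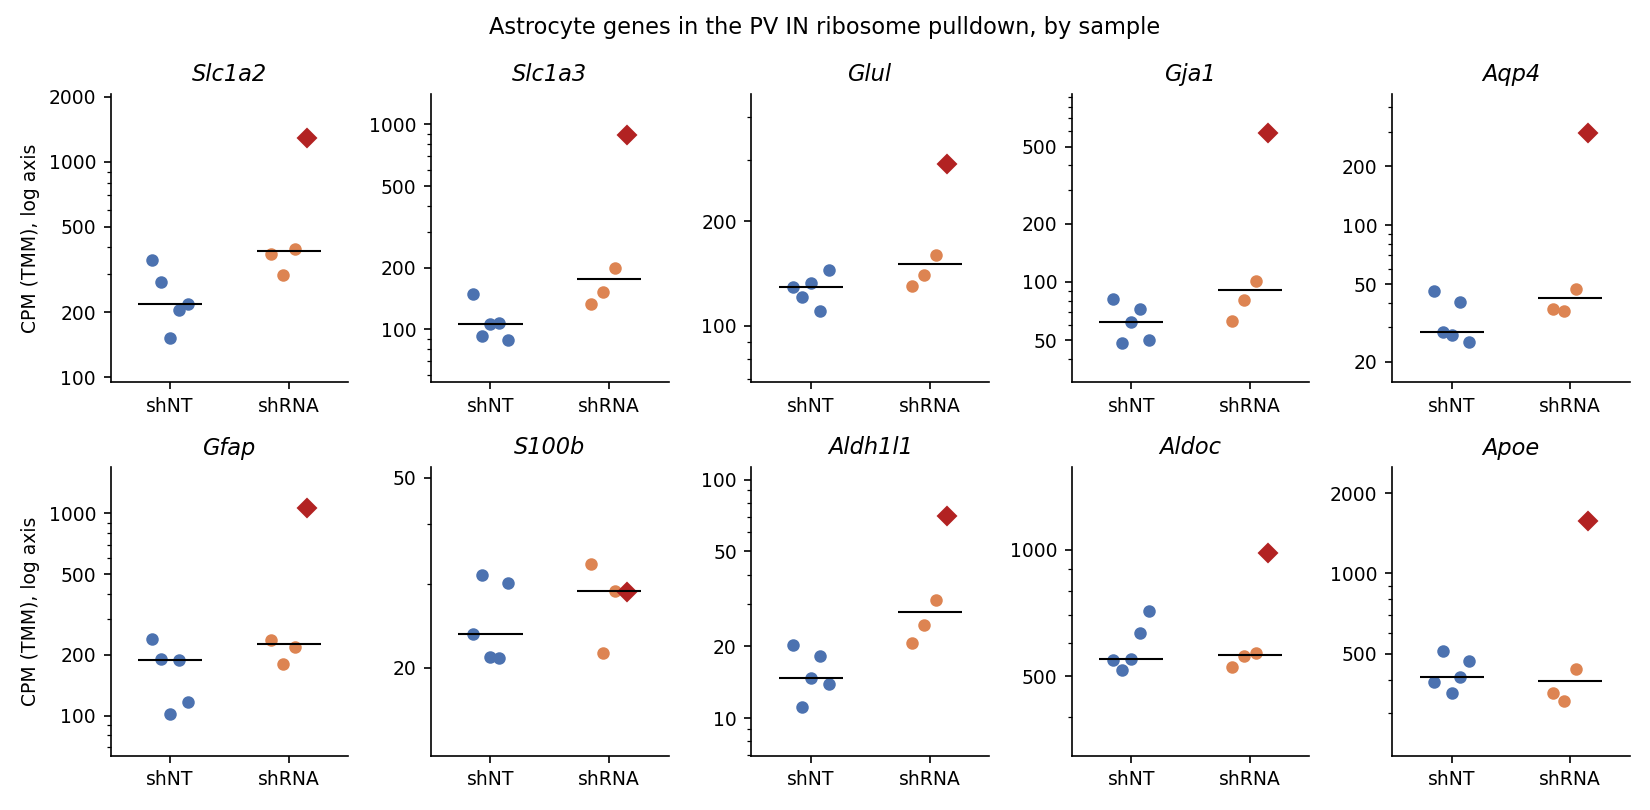
Level of each of the 10 astrocyte genes (CPM scaled by TMM, log axis) in the 5 shNT samples (blue circles), shRNA replicates 1 to 3 (orange circles) and shRNA replicate 4 (red diamond). Horizontal lines are group medians. In every gene but S100b the diamond lies above all other samples.

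The genes of glutamate uptake and recycling come first. Slc1a2 (ENSMUSG00000005089, mm9 chromosome 2 from 102498816 to 102630941) encodes GLT-1, the main glutamate transporter of astrocytes. With shNT its levels in replicates 1 to 5 were 351, 277, 152, 206 and 219 CPM, and with shRNA those in replicates 1 to 4 were 375, 298, 392 and 1293 CPM. shRNA replicates 1 and 3 lay above all shNT samples, replicate 2 lay below shNT replicate 1, and replicate 4 was 3.30 times the next sample. Between the groups the log2 fold change was 1.29 (standard error 0.42, FDR = 0.0734) with 9 samples and 0.54 (standard error 0.24, FDR = 0.191) with 8 (quasi-likelihood test).

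Slc1a3 (ENSMUSG00000005360, chromosome 15 from 8584124 to 8660764) encodes GLAST, the other astrocytic glutamate transporter. Its levels were 149, 93.4, 107, 108 and 88.6 CPM with shNT and 133, 152, 199.6 and 882 CPM with shRNA. The overlap between the groups came from shNT replicate 1 and shRNA replicate 1. The log2 fold change was 1.65 (standard error 0.50, FDR = 0.0686) with 9 samples and 0.56 (standard error 0.18, FDR = 0.136) with 8 (quasi-likelihood test). Glul (ENSMUSG00000026473, chromosome 1 from 155747074 to 155756853), glutamine synthetase, turns the glutamate that is taken up into glutamine. Across the other samples it kept to a narrower range, from 110.0 to 145 CPM with shNT and from 130.4 to 160.3 CPM in shRNA replicates 1 to 3, and reached 291 CPM in shRNA replicate 4. Between the groups the log2 fold change was 0.50 (standard error 0.23, FDR = 0.146) with 9 samples and 0.15 (standard error 0.13, FDR = 0.485) with 8 (quasi-likelihood test).

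The membrane proteins of astrocyte coupling and endfeet stood out most in shRNA replicate 4. Gja1 (ENSMUSG00000050953, chromosome 10 from 56097106 to 56110225) encodes connexin 43, the gap junction subunit of astrocytes. It had 81.7, 48.5, 61.8, 72.2 and 50.2 CPM in the shNT samples and 63.0, 80.6, 101 and 588 CPM in the shRNA samples. shRNA replicate 4 had 8.70 times the median of the other 8 samples, the highest ratio among the 10 genes, while shRNA replicates 1 and 2 lay within the shNT range. The log2 fold change was 1.73 (standard error 0.58, FDR = 0.0785) with 9 samples and 0.37 (standard error 0.19, FDR = 0.243) with 8 (quasi-likelihood test). Aqp4 (ENSMUSG00000024411, chromosome 18 from 15547903 to 15562193), the water channel of astrocyte endfeet, had 46.3, 28.4, 27.4, 40.5 and 25.2 CPM with shNT and 37.5, 36.2, 47.3 and 294 CPM with shRNA. In the other 8 samples its groups largely coincided, and the log2 fold change was 1.63 (standard error 0.58, FDR = 0.0884) with 9 samples and 0.25 (standard error 0.20, FDR = 0.422) with 8 (quasi-likelihood test).

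Gfap and S100b, both used as histological astrocyte markers, parted from each other. Gfap (ENSMUSG00000020932, chromosome 11 from 102748650 to 102762226) encodes the intermediate filament of astrocytes, which rises in reactive astrocytes. It had 238, 189.8, 101, 188 and 117 CPM with shNT and 235, 181, 219 and 1058 CPM with shRNA. shRNA replicates 1 to 3 lay inside the shNT range, and the log2 fold change was 1.34 (standard error 0.50, FDR = 0.0962) with 9 samples and 0.32 (standard error 0.26, FDR = 0.434) with 8 (quasi-likelihood test). S100b (ENSMUSG00000033208, chromosome 10 from 75716598 to 75723904) encodes a small calcium-binding protein. Its levels were 23.6, 31.3, 21.0, 20.9 and 30.1 CPM with shNT and 32.9, 21.5, 29.0 and 28.9 CPM with shRNA. It was the single gene of the 10 in which shRNA replicate 4 was not the highest, with 1.10 times the median of the other samples. Between the groups the log2 fold change was 0.15 (standard error 0.18, FDR = 0.572) with 9 samples and 0.10 (standard error 0.21, FDR = 0.770) with 8 (quasi-likelihood test).

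Aldh1l1, Aldoc and Apoe serve folate, glucose and lipid metabolism. Aldh1l1 (ENSMUSG00000030088, chromosome 6 from 90436421 to 90550197), a folate enzyme used as a pan-astrocyte marker, was the single gene of the 10 in which the shRNA samples all exceeded the shNT samples. It had 20.2, 11.2, 14.7, 18.2 and 13.9 CPM with shNT and 20.6, 24.7, 31.2 and 70.5 CPM with shRNA, so the closest pair of samples differed by little. The log2 fold change was 1.23 (standard error 0.33, FDR = 0.0630) with 9 samples and 0.70 (standard error 0.19, FDR = 0.103) with 8 (quasi-likelihood test). Without shNT replicate 1 it was 1.34 and passed (FDR = 0.0473, quasi-likelihood test). That fit called 1417 of 15065 genes, higher or lower, against 264 of 15069 with all 9 samples. A share of 1 in 10 genes without overlap stands beside 8.97% of all genes with 9 samples, and beside 10.7% with 8. Exons of a second annotated gene cover 11.1% of the exon bases of Aldh1l1. Counting without strand could set reads there aside as ambiguous.

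Aldoc and Apoe, the most abundant of the 10, did not follow the transporters in the samples other than shRNA replicate 4. Aldoc (ENSMUSG00000017390, chromosome 11 from 78136470 to 78141283), a brain aldolase of glycolysis, had 547, 518, 550.4, 634 and 716 CPM with shNT and 525, 558, 569 and 984 CPM with shRNA. shNT replicates 4 and 5 were above shRNA replicates 1 to 3, and the log2 fold change was 0.15 (standard error 0.22, FDR = 0.630) with 9 samples and -0.12 (standard error 0.15, FDR = 0.606) with 8 (quasi-likelihood test). Apoe (ENSMUSG00000002985, chromosome 7 from 20281458 to 20284515), the main lipid carrier secreted in the brain, had 392, 511, 357, 409 and 470.4 CPM with shNT and 357, 332, 437 and 1567 CPM with shRNA. Its lowest value was in shRNA replicate 2 and its highest in shRNA replicate 4. Between the groups the log2 fold change was 0.65 (standard error 0.42, FDR = 0.279) with 9 samples and -0.22 (standard error 0.18, FDR = 0.448) with 8, so the sign of both genes turned when that sample was left out (quasi-likelihood test).

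**Figure D2:**
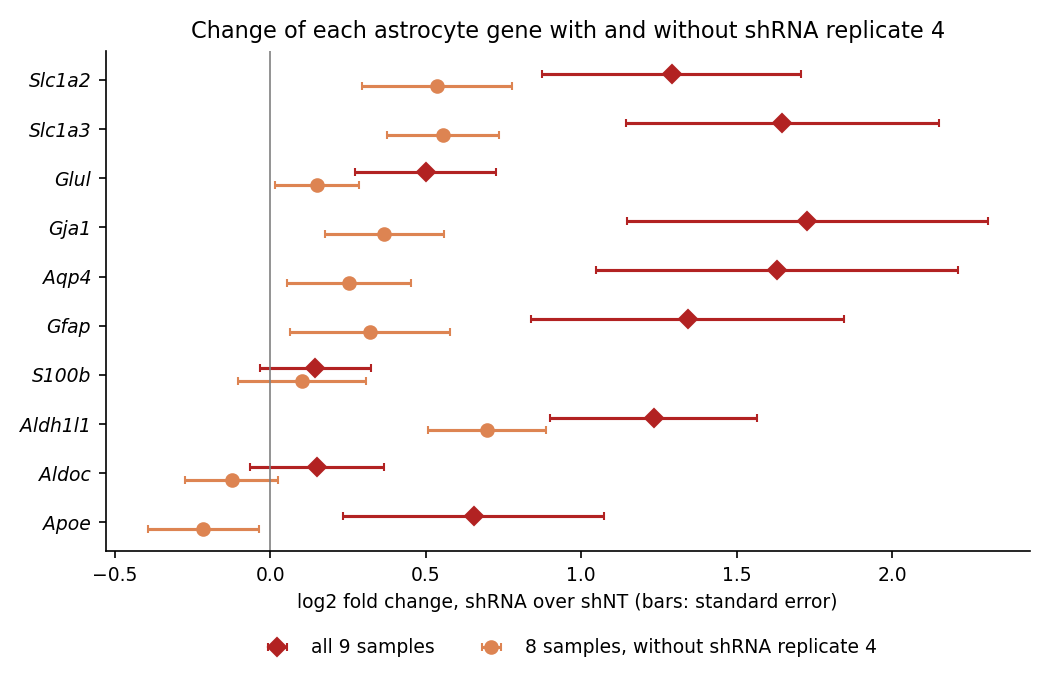
Log2 fold change (shRNA over shNT) of each of the 10 astrocyte genes with its standard error, derived from the test statistic. Values are from all 9 samples (red diamonds) and from the 8 samples without shRNA replicate 4 (orange circles). Gja1 moves from 1.73 to 0.37 and Aldoc from 0.15 to -0.12, while S100b is nearly the same in both.

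The size of the excess in shRNA replicate 4 differed between the 10 genes. Its ratio to the median of the other 8 samples was 8.70 for Gja1, 7.98 for Aqp4, 7.32 for Slc1a3, 5.60 for Gfap, 4.51 for Slc1a2, 3.91 for Apoe, 3.68 for Aldh1l1, 2.21 for Glul, 1.78 for Aldoc and 1.10 for S100b. Among the other 8 samples the highest was between 1.38 times (Aldoc) and 2.80 times (Aldh1l1) the lowest. Within the smaller set of sample names, shRNA replicate 4 had between 1.13 (S100b) and 9.62 (Gja1) times the mean of shNT replicates 4 and 5. Within the larger set, 3 shNT against 3 shRNA samples, the median log2 fold change of the 10 genes was 0.22, and the largest was that of Aldh1l1, 0.70 (standard error 0.25, FDR = 0.448, quasi-likelihood test). Apart from replicate 4, shRNA replicate 3 was the highest sample in 6 of the 10 genes.

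The promoters of 3 of these genes are shown because they span that range: Gja1 and Slc1a3, with the highest ratios among the genes that have exactly 1 window in the RefSeq table, and S100b, with the lowest. Each line is the 250 bases before the annotated start in RefSeq (GRCm38.p6), Gja1 at chr10:56377050-56377299 on the plus strand, Slc1a3 at chr15:8710808-8711057 on the minus strand and S100b at chr10:76253586-76253835 on the plus strand. Capitals mark the searched letters, described after the sequences.
Gja1: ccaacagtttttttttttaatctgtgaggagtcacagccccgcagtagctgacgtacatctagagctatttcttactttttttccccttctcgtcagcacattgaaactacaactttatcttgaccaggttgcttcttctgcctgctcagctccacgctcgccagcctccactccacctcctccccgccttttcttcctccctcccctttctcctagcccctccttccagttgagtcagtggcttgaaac
Slc1a3: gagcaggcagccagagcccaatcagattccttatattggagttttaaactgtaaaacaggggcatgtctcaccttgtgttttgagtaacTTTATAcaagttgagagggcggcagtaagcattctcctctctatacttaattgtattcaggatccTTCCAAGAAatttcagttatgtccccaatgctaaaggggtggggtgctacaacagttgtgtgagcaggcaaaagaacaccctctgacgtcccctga
S100b: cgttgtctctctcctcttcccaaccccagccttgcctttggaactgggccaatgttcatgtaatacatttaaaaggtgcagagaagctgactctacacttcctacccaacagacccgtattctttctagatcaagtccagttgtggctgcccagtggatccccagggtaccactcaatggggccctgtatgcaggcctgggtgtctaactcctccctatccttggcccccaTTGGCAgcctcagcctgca

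Letters bound by known factors were searched on both strands of the windows. A gene can have several windows and was counted when any of them held the letters. TTCNNNGAA, bound by STAT factors, was found for Slc1a3 and Aldoc among the 9 genes matched in RefSeq. It was in 8.13% of all 27025 genes and in 7.02% of all 32851 windows. The nuclear factor I letters TTGGCA were found for Aldoc, Apoe and S100b, and for 14.1% of all genes (12.3% of windows). The TATA box, searched as TATAAA, was found for Apoe and Slc1a3, and for 14.3% of all genes (12.4% of windows). The SOX letters AACAAT were in none of the 9, and in 10.9% of all genes (9.42% of windows). None of these motifs overlaps another by its letters in the 3 windows shown. In Slc1a3 the TATA letters lie on the opposite strand from the gene. The Gja1 window holds none of these letters. These matches are a description of the windows only.

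Per kilobase of exon, the 10 genes spanned a wide range in the shNT samples. The highest levels were 216 ± 31.3 RPKM (SD, n = 5) for Apoe and 182 ± 24.9 RPKM (SD, n = 5) for Aldoc, above 98.3% and 97.9% of the genes tested. Gfap with 39.6 ± 13.5 RPKM (SD, n = 5) and Glul with 38.3 ± 3.93 RPKM (SD, n = 5) came next and were in the same order in 3 of 5 samples, so they do not differ beyond their spread. Gja1 and Slc1a2, at 20.3 and 18.3 RPKM, and Slc1a2 and S100b, at 18.3 and 17.1 RPKM, were each in that order in 2 of 5 samples. Slc1a3 followed with 12.8, Aqp4 with 6.31 and Aldh1l1 with 3.46 RPKM. S100b was above Slc1a3 in 4 of 5 samples, and all other neighbours kept their order in all 5. In shRNA replicate 4 the order changed most for Glul, which went from rank 4 to rank 7, and for Slc1a3, which went from rank 8 to rank 5. Set against Pvalb, which encodes parvalbumin and had 959 ± 276 RPKM (SD, n = 5) with shNT, the median shNT level was 24.3% for Apoe, 4.24% for Gfap, 2.22% for Gja1 and 0.385% for Aldh1l1. In shRNA replicate 4, where Pvalb had 298 RPKM, Apoe reached 2.66 times and Gja1 0.636 times the level of Pvalb in the same units.

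Further astrocyte genes, listed by role and not by change, were measured alongside, 64 in all with those of reactive astrocytes, of which 59 were tested. The reactive gene tested with 9 samples and not with 8 reached 1 CPM in shRNA replicate 4 alone. None of the 59 was called with 9 samples (quasi-likelihood test, beside 1.74% of all genes called higher). Of the 59, 26 had an unadjusted p under 0.05 (1 of them lower), and 50 had a positive log2 fold change. Over all genes 20.7% were higher at that p and 57.9% were positive. With 8 samples 32 of 58 were positive (beside 53.0% of all genes) and 1 was called (beside 0.978% called higher). Of the 58, 16 had an unadjusted p under 0.05 (5 of them lower), where 14.6% of all genes were higher. The likelihood ratio test called 20 higher (beside 11.2% of all genes) and 1 lower, and DESeq2 16 higher (beside 10.2%) and 1 lower, with 7 left without a p-value. With 8 samples they called 7 (beside 5.28%) and 5 (beside 4.95%) higher, and 0 and 2 lower. The groups were without overlap, shRNA above, in 5 of them (8.47%, beside 8.97% of all genes): Acsbg1, Fgfr3, Gjb6, Hepacam and Slc7a10, which apart from Acsbg1 are named after their values were seen. Exons of a second annotated gene cover 29.5% of the exon bases of Slc7a10.

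All 14 genes of astrocytic transport were higher in shRNA replicate 4 than in any other sample, with a median log2 fold change of 1.30 over 9 samples and 0.43 over 8. Atp1b2, a beta subunit of the sodium pump, the bicarbonate transporter Slc4a4 and the endfoot membrane protein Mlc1 had log2 fold changes of 1.40, 1.48 and 1.07 with 9 samples and 0.25, 0.82 and 0.18 with 8. Receptors and transcription factors had a median of 1.19 over 9 samples and 0.27 over 8. Of these, Id4, Gpr37l1 and S1pr1 had 5.85, 3.54 and 5.69 times their median level in shRNA replicate 4. Their log2 fold changes were 1.24, 0.89 and 1.21 with 9 samples and 0.10, 0.30 and 0.22 with 8. Gabbr1, a GABA-B receptor subunit that neurons also make in quantity, had 0.461 times its median there and was lower in the shRNA group by a log2 ratio of -0.28 (quasi-likelihood FDR = 0.378), and of -0.098 without that sample (FDR = 0.661).

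Metabolic and secreted genes were mixed, with 11 of 16 positive over 9 samples (median 0.27) and 4 of 16 over 8 (median -0.05). Acsbg1, an acyl-CoA synthetase of astrocytes, was the exception and the single astrocyte gene of any list that was called in the 8 samples. In that fit 0.978% of all genes were called higher. Acsbg1 had 37.7, 24.5, 30.2, 29.1 and 23.6 CPM with shNT and 47.2, 51.7, 64.1 and 166 CPM with shRNA, without overlap. It rose without shRNA replicate 4 by 0.89 on the log2 scale (standard error 0.16, FDR = 0.0427), and with all 9 samples it was 2.83-fold higher and narrowly missed the threshold (FDR = 0.0503, quasi-likelihood test).

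Genes of reactive astrocytes summed to 102 to 168 CPM with shNT, 97.8 to 109 CPM in shRNA replicates 1 to 3 and 257 CPM in replicate 4. The median log2 fold change was 0.53 for the 13 tested with 9 samples and -0.31 for the 12 tested with 8. The gene tested with 9 samples and not with 8 entered through its level in shRNA replicate 4 alone, so these medians cover unlike sets. Lcn2, Timp1, Cxcl10, Steap4 and Tgm1 had under 1 CPM in every sample and were not tested. Serpina3n, an acute-phase protease inhibitor of reactive astrocytes, had 48.0 to 117 CPM with shNT and 63.5 to 77.2 CPM with shRNA, and shRNA replicate 4 did not exceed the shNT range. Vim, an intermediate filament gene that vessel cells also express, had 11.2 to 33.6 CPM with shNT, 9.91 to 13.2 CPM in shRNA replicates 1 to 3 and 66.9 CPM in shRNA replicate 4. The log2 fold change was 0.25 (FDR = 0.757) with 9 samples and -0.87 (FDR = 0.158) with 8. Nes, which encodes nestin, likewise had 0.57 (FDR = 0.560) and -1.06 (FDR = 0.145), and S1pr3, a sphingosine phosphate receptor, 0.82 (FDR = 0.206) and 0.03 (FDR = 0.947) (quasi-likelihood test).

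**Figure D3:**
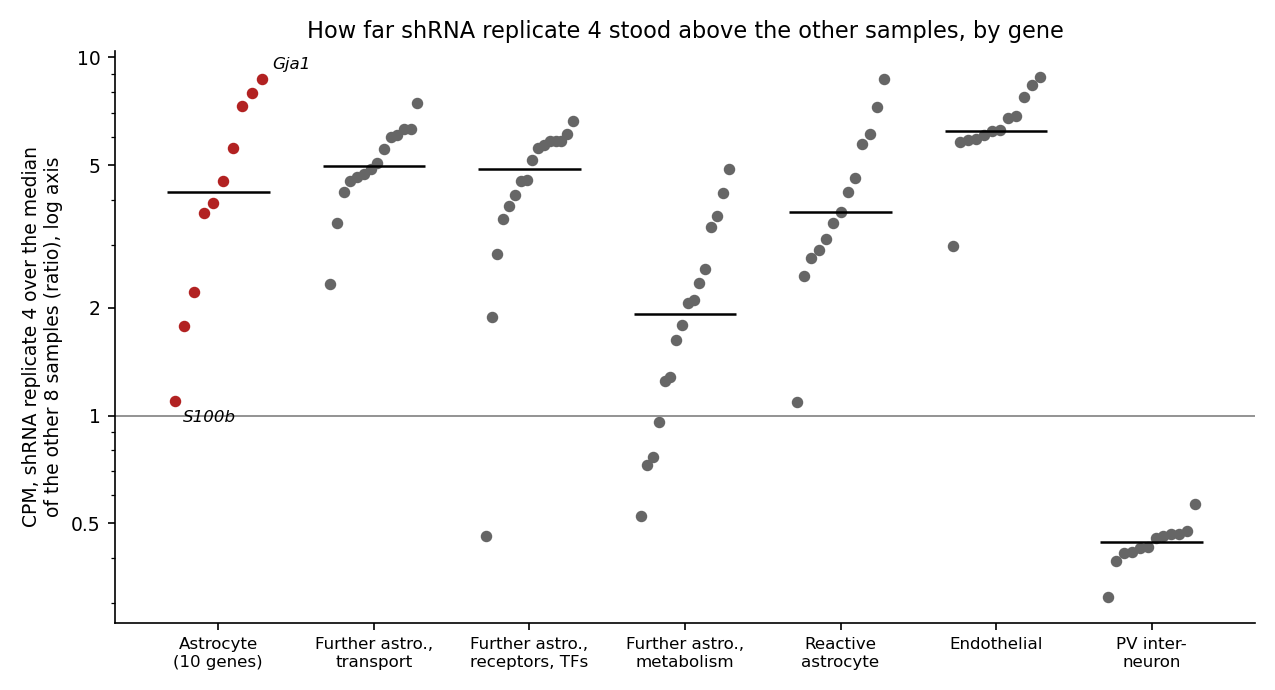
CPM in shRNA replicate 4 divided by the median of the other 8 samples (log axis), 1 point per tested gene, for the 10 astrocyte genes (red) and for other lists (grey), with the median of each list as a line. The astrocyte genes spread from 1.10 (S100b) to 8.70 (Gja1), endothelial genes all lie above 1 and PV IN genes all below 1. Of the 13 reactive astrocyte genes, 1 was tested only because of its level in shRNA replicate 4.

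Markers of other cells moved in shRNA replicate 4 as well. The 12 endothelial markers (median log2 fold change 0.46 with 9 samples, 11 of 12 positive) summed to between 114 and 349.9 CPM with shNT, to between 72.3 and 155 CPM in shRNA replicates 1 to 3 and to 932 CPM in shRNA replicate 4, and all 12 were highest there. Without that sample 0 of the 12 had a positive log2 fold change and the median was -0.92. Of the 10 astrocyte genes 8 stayed positive (median 0.29), which was not particular to them. In the same fit 10 of 10 oligodendrocyte, 8 of 8 DG granule cell, 8 of 10 pyramidal neuron and 6 of 7 oligodendrocyte precursor markers were positive. Their medians were 0.62, 0.67, 0.72 and 0.93. Of the mural cell, ependymal and choroid plexus, and PV IN markers, 1 of 8, 2 of 6 and 0 of 12 were positive. The 8 mural cell markers summed to 46.1 to 183, 36.8 to 57.7 and 321 CPM in the same 3 sets of samples, and the 10 oligodendrocyte markers to 799.8 to 2468, 1514 to 2792 and 3134 CPM. The 10 microglia markers did not stand apart in shRNA replicate 4 (128 CPM, against 80.2 to 152 CPM in the other samples). All 12 PV IN markers were below their median there, with ratios from 0.312 to 0.566. The 10 pyramidal neuron markers of CA3 and CA2 summed to 1036 to 1905, 1913 to 2393 and 1906 CPM, with a median log2 fold change of 0.71 in 9 samples and 0.72 in 8, and the 8 markers of DG granule cells to 67.8 to 132, 155 to 169 and 214 CPM. The 7 oligodendrocyte precursor markers summed to 64.9 to 95.8, 104 to 135 and 130.1 CPM, and 4 of the 7 were called higher with 9 samples and 0 with 8 (quasi-likelihood test, beside 1.74% and 0.978% of all genes). At an unadjusted p under 0.05 there were 6 of the 7 in both fits, beside 20.7% and 14.6% of all genes higher. With 8 samples the likelihood ratio test and DESeq2 each called 4, beside 5.28% and 4.95% of all genes called higher. The shares of all genes given for these fits apply to the counts that follow as well. Of the 10 pyramidal neuron markers 1 was called in both fits, and of the 10 markers of other interneurons 2 with 9 samples and 0 with 8 (there 2 had an unadjusted p under 0.05, and the likelihood ratio test and DESeq2 each called 2). The 8 ependymal and choroid plexus markers summed to 17.96 to 23.3, 17.7 to 23.5 and 74.1 CPM, and the 10 markers of other interneurons to 583 to 949, 579 to 761 and 402 CPM. No gene of these lists was at 0 in all samples. Their part in the astrocyte result, and that of reads outside exons, was not tested.

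**Figure D4:**
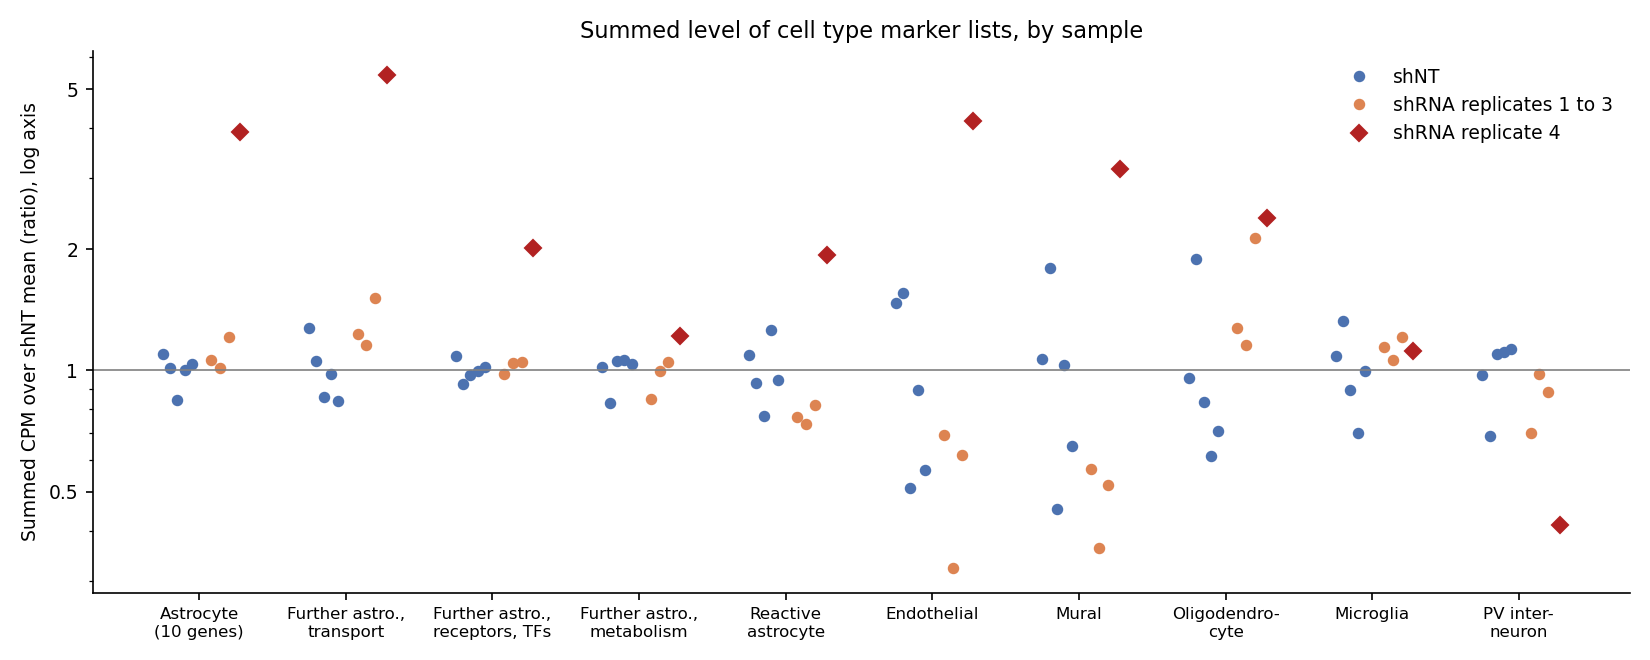
Summed CPM of each marker list divided by its mean over the shNT samples (log axis), by sample: shNT (blue), shRNA replicates 1 to 3 (orange) and shRNA replicate 4 (red diamond). The diamond stands at the top for the astrocyte, further astrocyte, reactive astrocyte, endothelial, mural and oligodendrocyte lists. It stands at the bottom for the PV IN list, while for microglia it lies among the other samples.

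The 10 genes were also compared with each other over the samples, as a description on log2 CPM from shared libraries. Over 9 samples each gene's Pearson correlation with the mean of the other 9 genes lay between 0.778 and 0.963, except 0.232 for S100b. Over the 8 samples without shRNA replicate 4 it was 0.801 for Slc1a2, 0.773 for Slc1a3, 0.745 for Aldh1l1 and 0.699 for Aqp4, but -0.141 for Apoe and -0.257 for Aldoc. The genes most like the mean profile of the 10 over 9 samples, out of 10933 with at least 5 CPM on average, were Sdc4, Ppp1r1b, Ndrg2, Serpine2, Id4, Mlc1, Slc9a3r1, Ppap2b, Timp4 and Aldh2, with correlations from 0.983 to 0.988. With 9 samples 283 genes passed a correlation of 0.9, and with 8 samples 8 did. The genes most like the profile over those 8 samples were Fgfr3, Ppap2b, Ezr, Aldh2, Mlc1, Tcf7l2, Lrrc58, Slc12a4, Rad50 and Akap12, with correlations from 0.894 to 0.938, and 3 genes (Ppap2b, Aldh2 and Mlc1) were in both sets. Over the same 8 samples the median correlation was 0.803 for the 14 further transport genes, 0.619 for receptors and transcription factors, 0.0946 for metabolic and secreted genes and -0.036 for reactive astrocyte genes, beside 0.0719 for all genes. Lists of other cells ranged as widely, with 0.642 for oligodendrocyte precursors, 0.512 for pyramidal neurons, 0.508 for DG granule cells, 0.441 for oligodendrocytes, 0.439 for microglia, 0.0564 for endothelial cells and -0.196 for PV INs.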

How the data were processed

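Per the labels and the study's methods, the authors made SMARTer v4 libraries from immunoprecipitated RNA, aligned the reads to the mm9 transcriptome with STAR, used HTSeq 0.6.0 (unstranded) to assign unique reads to genes and deposited raw counts for each sample. The annotation they used is not given in the sources used here. GENCODE vM1 of the same build gave symbols, positions and exon lengths (37205 of 37620 identifiers named). Whether samples came from separate litters or days is not stated beyond the pooling of mice, so p-values measure the spread between these samples.

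Genes that reached 1 CPM in any 1 sample entered the test (22551 removed) and were scaled by TMM, then analysed with edgeR 4.0.16 (quasi-likelihood test, condition as the only term, R 4.3.3). Standard errors of its log2 fold changes were derived as the absolute log2 fold change divided by the square root of the test's F statistic. RPKM used the union of exons. log2 CPM used a prior count of 2. Samples held 18281719 counts or more, and genes under 1 CPM carry the largest counting error. DESeq2 1.42.0, limma 3.58.1 voom, other scalings, filters, terms and left-out samples were alternatives, and the script was tested on simulated counts. The 10 genes and the lists were chosen with earlier results of these data known. All 10 were named. Of each further list the genes called in either fit were named, or else the 4 with the highest mean CPM (1 result that this names is not reported here), and the 10 genes most correlated with the mean standardized profile.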

Additional observations from a re-analysis of the deposited data

Results flagged for a closer look

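Dixon's test (95% level) was applied to 40 sets of measurements to look for a sample lying apart from its group, and it flagged 16. In 40 independent sets chance would give about 2. These sets are not independent, since they share samples and include a sum over genes that were also tested singly. The 16 flags therefore cannot be weighed against chance, and all of them fall on shRNA replicate 4 or shNT replicate 2. shRNA replicate 4 stood high above shRNA replicates 1 to 3 in 7 of the 10 astrocyte genes: Aldoc with 983.7 CPM against 525 to 569, Apoe with 1567 CPM against 332 to 437, Aqp4 with 294 CPM against 36.2 to 47.3, Gfap with 1058 CPM against 180.5 to 235, Gja1 with 588 CPM against 63.0 to 101, Slc1a2 with 1293 CPM against 297.5 to 392 and Slc1a3 with 882 CPM against 133 to 199.6. The sum over the 10 genes was 7057 CPM there, against 1823 to 2185 CPM.

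The same sample also exceeded replicates 1 to 3 by this measure in the summed level of further astrocyte receptors and transcription factors (2121 CPM against 1034 to 1102), of further transport genes (2319 CPM against 496 to 647), of reactive astrocyte genes (257 CPM against 97.8 to 109) and of endothelial markers (932 CPM against 72.3 to 155). Alignments at more than 1 place made up 8.24% of its alignments, against 10.6% to 10.8%.

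Among the shNT samples, replicate 2 stood apart in the summed level of further metabolic and secreted genes (3314 CPM, against 4079 or more), in that of oligodendrocyte markers (2468 CPM against 799.8 to 1248) and in the share of reads outside exons (18.6% against 9.76% to 11.3%).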

How the results depend on the processing

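Other settings changed how many of the 10 astrocyte genes were called more than they changed direction. With 9 samples none was called by the quasi-likelihood test, and 6 were called by the likelihood ratio test, 2 by DESeq2, 3 by DESeq2 without its Cook's distance cutoff and 3 by limma voom. Leaving out 1 sample at a time gave 0 to 1 calls (Aldh1l1 without shNT replicate 1, where 1417 of all 15065 genes were called). Without shRNA replicate 4 the same 4 tests called 1, 1, 1 and 3. The median log2 fold change of the 10 genes, 1.26, was 0.42 with limma voom, 0.27 without shRNA replicate 4 and shNT replicate 2, 0.22 in the larger name set and 0.29 to 1.45 over the samples left out, lowest without shRNA replicate 4. The summed level in shRNA replicate 4, 3.81 times the median of the others, was 4.72 by library size, 3.65 by DESeq2 size factors and 4.09 by upper quartile scaling.

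The deviations of same-numbered shNT and shRNA samples from their group means correlated at -0.267, -0.641, 0.486 and -0.181 for numbers 1 to 4. Deviations within so few samples cannot decide whether the numbers pair samples. With the replicate number as a block, fitted on the same samples, the median was 0.87, and 29 genes over all genes were called.

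Of the further astrocyte genes, 0 called became 21 with the likelihood ratio test, 17 with DESeq2, 19 without its cutoff, 13 with limma voom, 5 with no filter, 1 with at least 1 CPM in 4 samples, 1 with the name set as a term, 4 without shRNA replicate 4 and shNT replicate 2, and 0 to 4 over single samples left out. Over all genes, 264 of 15069 were called. The count became 0 by library size, by upper quartile scaling and in the larger name set. It became 2230 with the likelihood ratio test, 2365 with DESeq2, 2391 without its cutoff and 2919 with limma voom, each of 15069. With no filter 515 of 24072 were called, and with at least 1 CPM in 4 samples 360 of 13662. With the name set as a term 377 of 15069 were called. Without shRNA replicate 4 and shNT replicate 2 there were 680 of 14270. Over single samples left out the count was 0 to 1417. It was 0 without shNT replicates 3, 4 or 5 or shRNA replicates 1 or 3. Without shNT replicate 1 it was 1417 of 15065, and without shRNA replicate 4 it was 142 of 14515.

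Log2 fold changes that changed sign were those of Aldoc (-0.099 with limma voom, -0.12 without shRNA replicate 4, -0.15 also without shNT replicate 2, -0.0015 in the larger name set), Apoe (-0.22, -0.11 and -0.20 in the last 3 of these), S100b (-0.012 without shRNA replicate 1), Vim (-0.52 with limma voom, -0.24 with the block, -0.018 with the name set as a term, -0.023 without shNT replicate 3, -0.87 without shRNA replicate 4, -0.61 also without shNT replicate 2, -1.06 in the larger set), Nes (-0.77 with limma voom, -0.35 with the block, -1.06 without shRNA replicate 4, -0.76 also without shNT replicate 2, -1.28 in the larger set), S1pr3 (-0.071 without shRNA replicate 4 and shNT replicate 2, -0.059 in the larger set) and Serpina3n (0.039 in the larger set). Over all single samples left out these values ran from -0.12 to 0.22 (Aldoc), -0.22 to 0.88 (Apoe), -0.012 to 0.25 (S100b), -0.87 to 0.52 (Vim), -1.06 to 0.89 (Nes) and up to 1.03 (S1pr3). The cause was not tested. No scaling turned the direction of any of the 10 genes. Aldh1l1, the gene of the 10 with the fewest reads on average, had between 243 and 1564 per sample.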
